A study of Mus musculus with 17 samples.

Results

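The genes described here are Cxcr4, its chemokine ligand Cxcl12, the second CXCL12 receptor Ackr3, the alternative ligand Mif with its receptor Cd74, and Hmgb1, whose protein binds CXCL12. These 6 genes were taken by name from the 55335 genes in the count tables. No rule on their values was used, but earlier results of these data were known. All 6 passed the filter on low counts in every comparison. The study asked how a gain of Cxcr4 function alters skeletal progenitors of the bone fraction. Osteoprogenitor cells (OPCs) were sorted as CD45-TER119-CD31-Sca-1-CD51+PDGFRα+/- cells and skeletal stromal/stem cells (SSCs) as CD45-TER119-CD31-Sca-1+CD51+PDGFRα+ cells. Both came from Cxcr4+/+ (WT) mice and from mice with 1 (+/1013) or 2 (1013/1013) copies of the Cxcr4 1013 allele, a knock-in carried by every cell of the body, with no further allele or treatment. The mice are described as littermate females of 8 to 12 weeks. Each of the 17 libraries was made from a pool of 3000 cells of 3 mice, with 3 libraries a group and 2 for 1013/1013 SSCs, and the labels tie no library to a litter or a day. A library held 44217695 to 92683497 counts on genes, and 3 counts, used as the detection floor, equal 0.0324 to 0.0678 CPM, the count scaled to a common library total, in them. The floor covers counting error only, because PCR copies were not marked by molecular identifiers.

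CXCR4 is a G protein-coupled receptor. On binding CXCL12 it signals through inhibitory G proteins, is then phosphorylated on its C-terminal tail, recruits β-arrestins and is internalised. ACKR3 binds CXCL12 with high affinity and clears it from the surroundings without classical G protein signalling, and MIF signals through CD74 together with CXCR4 or CD44. HMGB1, a chromatin protein that damaged cells release, forms a complex with CXCL12 that acts on CXCR4. In bone marrow, stromal cells rich in CXCL12 retain CXCR4-bearing blood progenitors and leukocytes. Mutations that shorten the tail of CXCR4 leave the receptor resistant to desensitization and underlie most cases of WHIM syndrome, and the 1013 allele is a mouse model of them.

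The counts were made per gene, so WT and 1013 transcripts of Cxcr4 were added together and the values below say nothing on the share of each allele. The reference end of the Cxcr4 coding sequence, which lies in exon 2 of 2 and encodes part of the tail that the mutation shortens, is printed to show the stretch concerned. It covers the last 120 of 1080 coding bases at mm10 chr1:128588843-128588962, minus strand (GENCODE M21), with the natural stop codon in capitals.
Cxcr4 coding end: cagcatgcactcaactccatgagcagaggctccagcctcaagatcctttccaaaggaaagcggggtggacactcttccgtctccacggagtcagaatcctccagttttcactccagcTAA
The Cxcr4 gene spans chr1:128588199-128592293 (minus strand), Cxcl12 chr6:117168535-117181367 (plus), Ackr3 chr1:90203980-90216751 (plus), Mif chr10:75859353-75860240 (minus) and Hmgb1 chr5:149046702-149184489 (minus). In the count tables Cxcr4 is ENSMUSG00000045382.6, Cxcl12 ENSMUSG00000061353.11, Ackr3 ENSMUSG00000044337.5, Mif ENSMUSG00000033307.7, Hmgb1 ENSMUSG00000066551.12 and Cd74 ENSMUSG00000024610.15.

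The sorted populations differed in 1 gene of the gates and in 1 gene of osteoblasts. Ly6a, which encodes Sca-1, was higher in WT SSCs than in WT OPCs (log2 fold change 6.80 ± 1.12, SE) and the collagen gene Col1a1 was lower (-4.80 ± 0.53). Both gates removed CD45+ cells, yet the 18 leukocyte genes followed here, which include Ptprc (CD45), Tyrobp, S100a8, Cd79a and Csf1r, took 0.771% of counts in OPC WT replicate 3, 0.857% in OPC 1013/1013 replicate 2 and 0.778% in SSC WT replicate 3. In the other 14 libraries they took 0.00509% to 0.126%. Of the 18 genes, 0 to 3 were at or under 3 counts in these 3 libraries and 1 to 7 in the others. The 3 libraries, chosen after the data were seen, are called leukocyte-rich below, and results that rest on them are given with and without them. In a bulk library, fewer cells of a type cannot be told apart from less RNA per cell.

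Levels are given as CPM scaled by the trimmed mean of M values (TMM) over the 17 libraries. Differences are log2 fold changes from an edgeR quasi-likelihood fit with their SE, and called genes are those with a Benjamini-Hochberg adjusted p under 0.05, over all genes tested, that also differed 1.5-fold or more. The first question was whether the receptor, its ligands and its partners differed between the 2 cell types. In WT cells, 2 of the 6 genes were called, both higher in SSCs, where 11.4% of 20238 genes tested were called and 5.55% were called higher. In +/1013 cells, 4 were called higher in SSCs and 1 lower, against 12.5% of all genes. In 1013/1013 cells, 3 were called, all higher, against 13.1%, with 6.94% called higher. The libraries of SSCs and OPCs did not overlap for 3 genes in WT (all higher in SSCs), 5 in +/1013 and 4 in 1013/1013 cells, where 37.9% (22.2% higher), 35.1% and 40.2% of all genes did not overlap. Ackr3 and Hmgb1 were called in each genotype, Cxcl12 in both mutant genotypes, and Mif and Cxcr4 in +/1013 cells. Over all genes the median difference was 0.173 (log2) in WT, 0 in +/1013 and -0.195 in 1013/1013 cells.

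**Figure D1:**
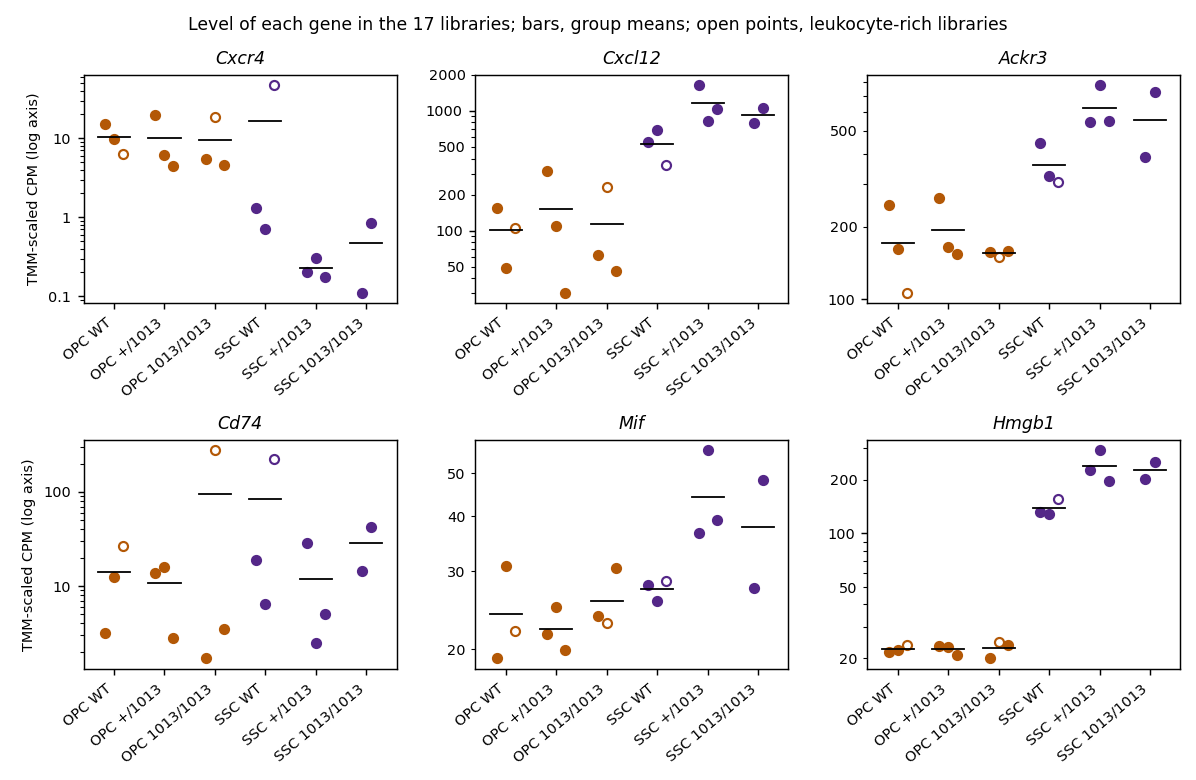
TMM-scaled CPM (log axis) of the 6 genes in the 17 libraries by cell type and genotype; points are libraries, orange for OPCs and violet for SSCs, bars are group means, and open points are the 3 leukocyte-rich libraries. Hmgb1, Ackr3 and Cxcl12 lie higher in every SSC library than in every OPC library, and Cxcr4 lies lower in 7 of the 8 SSC libraries.

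Cxcr4, the receptor, was detected in all 9 OPC libraries. Its level was 15.3, 9.65 and 6.32 TMM-scaled CPM in WT replicates 1 to 3, 19.4, 6.22 and 4.48 in the +/1013 replicates, and 5.52, 18.5 and 4.55 in the 1013/1013 replicates. Each genotype held 1 library above its others, and the 3 genotypes overlapped almost entirely. The group means were 10.4 ± 4.51 (SD, n = 3) in WT, 10.04 ± 8.18 in +/1013 and 9.52 ± 7.79 in 1013/1013 OPCs.

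In SSCs, Cxcr4 was lower than in every OPC library except in 1 library. The paper reported similar membrane Cxcr4 on WT and mutant skeletal cells, SSCs included, which is protein rather than RNA. WT SSCs had 1.30 and 0.719 TMM-scaled CPM in replicates 1 and 2 and 47.3 in replicate 3, the highest of the 17 values, in a leukocyte-rich library. The +/1013 SSCs had 0.206, 0.307 and 0.175, and the 1013/1013 SSCs 0.110 and 0.838. In counts these were 84, 48 and 2991 in WT, 12, 16 and 10 in +/1013 and 6 and 45 in 1013/1013 SSCs, so that every library lay above 3 counts. Without SSC WT replicate 3, the SSC values were all under 1.31, below the lowest OPC library at 4.48. Cxcr4 and the leukocyte sum gave r = 0.762 over the 8 SSC libraries (adjusted p = 0.0738, exact permutation test) and 0.403 without WT replicate 3. Over the 9 OPC libraries r was 0.335 (adjusted p = 0.543, exact permutation test) and 0.669 without the leukocyte-rich libraries. With the 3 class II genes described under Cd74, Cxcr4 gave r = 0.851 in SSCs (adjusted p = 0.0638, exact permutation test) and 0.0722 in OPCs. SSC 1013/1013 replicate 1 had the second highest leukocyte sum of the SSC libraries (1019 TMM-scaled CPM) and the lowest Cxcr4.

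In WT cells the direction of the Cxcr4 difference between the cell types depended on that 1 library. In +/1013 cells, whose groups hold no leukocyte-rich library, SSCs had less Cxcr4 than OPCs (log2 fold change -5.45 ± 1.47, adjusted p = 0.0267). This call was lost without OPC replicate 1 or any 1 SSC library (adjusted p = 0.0602 to 0.0964). Without the 3 leukocyte-rich libraries, which enter the spread of the fit, the call held (-5.45 ± 0.88, adjusted p = 0.00262). In 1013/1013 cells the value was -4.32 ± 1.65 (adjusted p = 0.105) with no overlap of the groups, -4.38 in DESeq2 (adjusted p = 0.00388), and -3.40 ± 0.98 (adjusted p = 0.0478) without the 3 leukocyte-rich libraries. In WT cells it was 0.66 ± 1.21 (adjusted p = 0.786) with all libraries and -3.62 ± 0.98 (adjusted p = 0.0620) without the 3. The part of leukocyte RNA in these values was not tested.

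Cxcl12, the ligand that draws CXCR4-bearing cells to marrow stroma, was far more abundant in SSCs. WT OPCs had 153.7, 48.9 and 104.4 TMM-scaled CPM, +/1013 OPCs 315.1, 109.7 and 30.3, and 1013/1013 OPCs 62.9, 230.0 and 46.1. WT SSCs had 544.7, 692.0 and 350.2, +/1013 SSCs 1642, 827.0 and 1032, and 1013/1013 SSCs 797.4 and 1061. The lowest SSC library, the leukocyte-rich WT replicate 3, was above the highest OPC library, +/1013 replicate 1. SSCs exceeded OPCs by 2.94 ± 0.78 on the log2 scale in +/1013 cells (adjusted p = 0.0248) and by 3.04 ± 0.83 in 1013/1013 cells (adjusted p = 0.0280). The WT value of 2.37 ± 0.76 missed the threshold in edgeR (adjusted p = 0.0613) and passed it in DESeq2 (adjusted p = 0.00683), which called 18.9%, 21.2% and 23.6% of all genes in WT, +/1013 and 1013/1013 cells. The +/1013 call was lost without OPC replicate 2 or 3 or SSC replicate 1, and the 1013/1013 call without OPC replicate 1 or 3 or either SSC library (adjusted p = 0.0521 to 0.0902). Within OPCs the level varied 10.4-fold, and the groups of OPCs overlapped. Genes of CXCL12-abundant reticular cells (Lepr, Kitl, Foxc1, Ebf3 and Adipoq) summed to 207.3 to 371.1 TMM-scaled CPM in SSC libraries and 75.0 to 149.6 in OPC libraries, so they too were higher in every SSC library. Their part in the Cxcl12 difference was not tested.

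Ackr3, the scavenging receptor, was higher in SSCs in each genotype. OPCs had 247.3, 161.9 and 106.2 TMM-scaled CPM in WT, 263.0, 165.1 and 154.8 in +/1013 and 157.1, 149.4 and 158.4 in 1013/1013. SSCs had 447.1, 326.0 and 306.3 in WT, 546.3, 775.2 and 546.9 in +/1013 and 390.7 and 723.4 in 1013/1013. No SSC library overlapped the OPC libraries. The difference was 1.07 ± 0.33 in WT (adjusted p = 0.0497), 1.68 ± 0.33 in +/1013 (adjusted p = 0.00462) and 1.85 ± 0.36 in 1013/1013 cells (adjusted p = 0.00444). The WT call lay at the threshold and was lost without the leukocyte-rich libraries (0.92 ± 0.37, adjusted p = 0.198) and without each of OPC WT replicates 2 and 3 and the 3 SSC WT libraries (adjusted p = 0.0698 to 0.165), while the mutant calls stood (1.68 and 1.82).

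Mif, a cytokine that signals through CD74 with CXCR4, varied least within OPCs after Hmgb1, with a lowest level of 19.1, a median of 22.9 and a highest of 30.9 TMM-scaled CPM over the 9 libraries. SSCs had 27.9, 25.7 and 28.6 in WT, 36.7, 56.4 and 39.3 in +/1013 and 27.5 and 48.3 in 1013/1013. WT SSCs lay within the OPC range and +/1013 SSCs above it. SSCs exceeded OPCs in +/1013 cells (0.99 ± 0.26, adjusted p = 0.0214, and 0.0577 to 0.0974 without OPC replicate 1 or 3 or SSC replicate 2), and the values were 0.19 ± 0.25 in WT (adjusted p = 0.687) and 0.56 ± 0.28 in 1013/1013 cells (adjusted p = 0.207). Named Mif pseudogenes took counts equal to 0.0399% of those of Mif.

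Cd74, the invariant chain of MHC class II and a receptor of MIF, was highest in leukocyte-rich libraries. OPCs had 3.15, 12.5 and 26.4 TMM-scaled CPM in WT, 13.7, 16.0 and 2.79 in +/1013 and 1.71, 277.5 and 3.53 in 1013/1013. SSCs had 19.1, 6.52 and 225.1 in WT, 28.4, 2.49 and 5.10 in +/1013 and 14.5 and 42.7 in 1013/1013. The values of 277.5 and 225.1 belong to leukocyte-rich libraries, and the third such library, OPC WT replicate 3, was the highest WT OPC library at 26.4. The summed level of H2-Aa, H2-Ab1 and H2-Eb1, the class II genes whose products CD74 escorts, was 182.7 and 173.3 in the first 2 of these and 39.99 in the third, against 5.29 to 54.2 in the other 14 libraries. Cd74 was called in no comparison of the cell types. Without the leukocyte-rich libraries its value turned from -1.72 ± 1.91 to 3.45 ± 1.29 in 1013/1013 cells (adjusted p = 0.110) and moved from 2.58 ± 1.70 to 0.71 ± 1.18 in WT cells (adjusted p = 0.804).

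**Figure D2:**
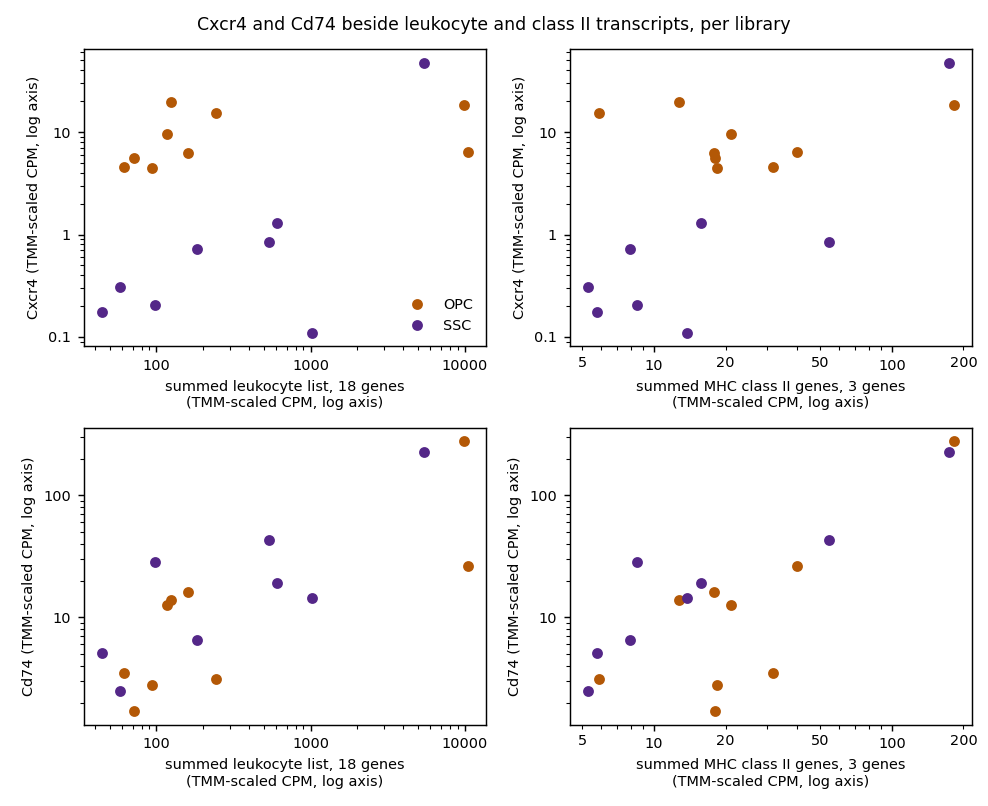
Cxcr4 (upper row) and Cd74 (lower row) in TMM-scaled CPM against the summed level of 18 leukocyte genes (left) and of 3 MHC class II genes (right), all on log axes, 1 point a library, orange for OPCs and violet for SSCs. The 3 leukocyte-rich libraries lie at the right of the left panels with Cxcr4 at 47.3, 18.5 and 6.32 and Cd74 at 225.1, 277.5 and 26.4.

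Hmgb1, which encodes the chromatin protein that partners CXCL12 outside the cell, separated the cell types most sharply. The 9 OPC libraries ranged from 19.9 to 24.5 TMM-scaled CPM with a median of 23.2. SSCs had 131.1, 128.4 and 156.5 in WT, 227.4, 292.4 and 195.6 in +/1013 and 203.0 and 251.7 in 1013/1013. All SSC libraries were above all OPC libraries with a wide gap, and each leukocyte-rich library was the highest of its group. SSCs exceeded OPCs by 2.63 ± 0.18 in WT (6.17-fold, adjusted p = 1.46e-06), 3.41 ± 0.19 in +/1013 (10.6-fold, adjusted p = 7.72e-08) and 3.32 ± 0.20 in 1013/1013 cells (10.01-fold, adjusted p = 1.58e-07). Hmgb1 has 14 named pseudogenes in the annotation, with counts equal to 1.42% of those of the gene itself, and shares 42 exon bases with Uspl1 on the other strand and 37 with the noncoding Mm2pr on its own, so that its count carries some uncertainty.

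**Figure D3:**
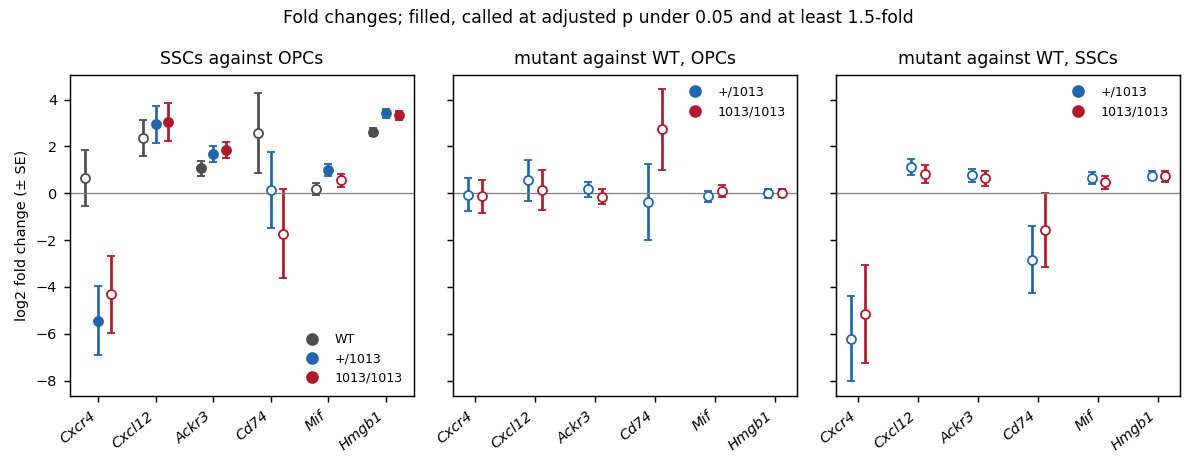
Log2 fold changes with SE of the 6 genes between SSCs and OPCs in each genotype (left) and between mutant and WT cells in OPCs (middle) and SSCs (right); filled points were called. Hmgb1 and Ackr3 are filled in all 3 cell type comparisons, and no point is filled in the genotype comparisons.

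The second question was whether the 1013 allele altered transcript levels of its own receptor axis. In OPCs no change was detected. By edgeR, 0 of the 6 genes were called in +/1013 against WT, 1013/1013 against WT or 1013/1013 against +/1013 OPCs, where 0%, 0.00617% and 0% of 16207 genes were called. None of the 6 had an unadjusted p under 0.05, whereas 331, 548 and 513 of all 16207 genes did. DESeq2 also called 0, against 0.358%, 0.259% and 0.364% of all genes. All 6 overlapped in each of these comparisons, where 5.28%, 7.61% and 7.34% of all genes did not. Hmgb1 moved least, with -0.01 ± 0.17 in +/1013 and 0.01 ± 0.17 in 1013/1013 OPCs. Cxcr4 itself gave -0.06 ± 0.71 and -0.13 ± 0.71, and Cxcl12 0.56 ± 0.87 and 0.14 ± 0.87, so that for these 2 genes a change of 1.5-fold lay within 1 SE. Cd74 gave the largest values, 2.73 ± 1.72 in 1013/1013 against WT and 3.11 ± 1.75 in 1013/1013 against +/1013 OPCs, which turned to -1.59 and -2.04 without the leukocyte-rich libraries. In +/1013 against WT OPCs it gave -0.38 ± 1.62. Ackr3 and Mif lay between -0.32 and 0.22 in the 3 comparisons.

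In SSCs the 6 genes were again called 0 times by edgeR, against 0.0736% of 17659 genes for +/1013, 0% for 1013/1013 against WT and 0% for 1013/1013 against +/1013. In +/1013 SSCs, 5 genes did not overlap with WT. All 5 had an unadjusted p under 0.05 in edgeR, as did 3061 of all 17659 genes. Cxcl12, Ackr3, Mif and Hmgb1 were each higher in all 3 +/1013 libraries than in all 3 WT libraries, and Cxcr4 was lower. The share of all genes without overlap was 31.2%, with 15.0% higher. The values were 1.13 ± 0.34 for Cxcl12 (adjusted p = 0.184), 0.77 ± 0.28 for Ackr3 (adjusted p = 0.235), 0.67 ± 0.26 for Mif (adjusted p = 0.259) and 0.76 ± 0.21 for Hmgb1 (adjusted p = 0.163). Cd74, which overlapped, gave -2.85 ± 1.43 (adjusted p = 0.356), and -0.10 without the leukocyte-rich library. DESeq2 called Cxcl12 (1.08, adjusted p = 0.0330) and Hmgb1 (0.71, adjusted p = 0.0307), where it called 7.37% of all genes. In CPM of the library total, without TMM, Cxcl12 of +/1013 replicate 2 (887.5) fell below that of WT replicate 2 (950.3), and so the groups overlapped.

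For Cxcr4 the value in +/1013 SSCs was -6.20 ± 1.83 (adjusted p = 0.179), and -2.14 ± 1.16 (adjusted p = 0.554) without the leukocyte-rich WT replicate 3. The counts of 10 to 16 in +/1013 against 48 and 84 in the other WT libraries did not overlap either. DESeq2 returned no p for Cxcr4 in the SSC comparisons.

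In 1013/1013 SSCs, which share the WT libraries with the comparison above, Cxcl12 (0.83 ± 0.37, adjusted p = 0.289) and Hmgb1 (0.72 ± 0.23, adjusted p = 0.182) were higher without overlap, where 40.7% of all genes did not overlap and 16.4% lay higher. Ackr3 gave 0.64 ± 0.31, Mif 0.47 ± 0.29, Cxcr4 -5.15 ± 2.08 (-1.08 without the leukocyte-rich library) and Cd74 -1.58 ± 1.58 (1.17 without it), all with overlap. The Ackr3 value was 0.0954 without 1013/1013 replicate 2. By edgeR 2 of the 6 genes had an unadjusted p under 0.05, as did 3224 of all 17659 genes. DESeq2 called 0 of the 6 against 9.67% of all genes. Between 1013/1013 and +/1013 SSCs, 0 of the 6 had such a p in edgeR, against 977 of all 17659 genes. There DESeq2 called 0 against 0.957% and all 6 genes overlapped, whereas 15.9% of all genes did not. The values there were 1.06 ± 1.67 for Cxcr4, -0.30 ± 0.38 for Cxcl12, -0.14 ± 0.32 for Ackr3, 1.27 ± 1.48 for Cd74, -0.19 ± 0.29 for Mif and -0.04 ± 0.23 for Hmgb1.

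Quality measures moved with genotype in SSCs. The share of reads on no gene was 3.68% to 4.16% in WT and 1.504% to 2.69% in mutant SSC libraries, and genes detected numbered 21449 to 22599 and 15748 to 19227, whereas in OPCs these ranges overlapped between genotypes. Over all genes the median difference from WT was -0.11 (log2) in +/1013 and -0.23 in 1013/1013 SSCs. When the fit kept only genes that reached 10 counts in each library, these medians were 0.00186 and 0.012. Cxcl12, Ackr3, Mif and Hmgb1 passed that stricter filter, but no median over genes of their own level was computed. Library quality and genotype cannot be told apart in SSCs. Sums of osteogenic and of leukocyte marker genes also separated WT from +/1013 SSCs. The 5 OPC and osteoblast genes (Col1a1, Bglap, Ibsp, Sp7 and Alpl), of which Col1a1 gave most counts in WT SSCs, took 1.15% to 1.66% of counts in WT, 0.226% to 0.421% in +/1013 and 0.242% to 0.478% in 1013/1013 SSCs. All 5 were above 3 counts in every SSC library except Sp7 in 1013/1013 replicate 1, and Bglap, Ibsp and Alpl overlapped between WT and +/1013 SSCs while Col1a1 and Sp7 did not. The 18 leukocyte genes took 0.0250% to 0.778% in WT, 0.00515% to 0.0115% in +/1013 and 0.0574% to 0.126% in 1013/1013 SSCs, so that WT and +/1013 SSCs did not overlap in either list. The paper reports that osteogenic genes appeared lower in mutant SSCs, by RNA-seq of these same libraries and by multiplex qPCR. It proposes defective osteogenic specification of these cells. For this it also reports weaker Alp and Alizarin Red staining in mutant SSC cultures, reversed by AMD3100, and fewer OPCs in mutant mice. Whether the osteogenic counts here came from SSCs themselves or from other cells was not tested. The part of OPCs, osteoblasts or leukocytes in the SSC values was not tested either.

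Whether the effect of the allele differed between the cell types was tested as an interaction over the 17 libraries. By edgeR 0 of the 6 genes were called for +/1013, against 0.0840% of all genes, and 0 for 1013/1013, against 0.153%. At an unadjusted p under 0.05 there were 3 (Cxcr4, Mif and Hmgb1) and 2 (Cxcr4 and Hmgb1), against 2153 and 3037 of all 20238 genes. Hmgb1 gave 0.78 ± 0.24 (adjusted p = 0.346) and 0.70 ± 0.26 (adjusted p = 0.256). Cxcl12 gave 0.57 ± 1.03 and 0.67 ± 1.09, Ackr3 0.61 ± 0.46 and 0.78 ± 0.48, Mif 0.80 ± 0.36 and 0.37 ± 0.38, and Cd74 -2.43 ± 2.31 and -4.30 ± 2.59. DESeq2 called Cxcr4 in both (-6.15 and -5.03), where it called 2.16% and 5.64% of all genes, but the edgeR values of -6.10 and -4.98 became -1.82 (adjusted p = 0.844) and 0.22 (adjusted p = 1) without the leukocyte-rich libraries.

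Levels of different genes were compared per kb of exon. Ackr3 was the most abundant of the 6 in 8 of 9 OPC libraries, at a median of 47.3 TMM-scaled CPM per kb, ahead of Mif (30.7), Cxcl12 (12.8), Cd74 (7.47), Hmgb1 (4.62) and Cxcr4 (3.50). In SSCs the medians were 148.4 for Ackr3, 99.3 for Cxcl12, 43.8 for Mif, 39.7 for Hmgb1, 9.998 for Cd74 and 0.284 for Cxcr4, and 5 of 8 libraries had exactly this order. By these medians Cxcl12 and Hmgb1 stood 1 place higher in SSCs than in OPCs, and Cxcr4 was last in both. In single OPC libraries the order varied, and the commonest order held in 2 of 9. Cxcr4 was last only in OPC WT replicate 3 and OPC +/1013 replicate 2, with Cd74 or Hmgb1 last in the others. The ranges of neighbours in these orders overlapped over the libraries. Cd74 came first only in OPC 1013/1013 replicate 2 and SSC WT replicate 3, both leukocyte-rich.

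Among libraries of 1 cell type, some of the genes moved together. Of 38 relations computed on log2 levels (15 pairs of the 6 genes, and Cxcr4 and Cd74 with the leukocyte and class II sums, in each cell type), 5 had an adjusted p under 0.05 by Pearson's r and 0 by Spearman's rho in two-sided exact permutation tests. In OPCs, Cxcr4 rose with its ligand Cxcl12 over the 9 libraries (r = 0.851, exact permutation p = 0.00532, adjusted p = 0.0444; rho = 0.883, p = 0.00308, adjusted p = 0.0585). The same 3 libraries, WT replicate 1, +/1013 replicate 1 and 1013/1013 replicate 2, were the highest for both genes, and each genotype gave 1 of them. Without the 2 libraries farthest from the median in Cxcr4, r was 0.640, and without the leukocyte-rich libraries it was 0.846. OPC +/1013 replicate 1, the highest for both genes, also had the highest endothelial (48.9 TMM-scaled CPM) and mural (554.3) sums of the OPC libraries. The next endothelial sums were those of 1013/1013 replicate 2 (19.85) and WT replicate 1 (19.48), so the same 3 libraries led here too. All other OPC libraries had 11.11 or less. In the mural sum WT replicate 1 came next (312.9), while 1013/1013 replicate 2 (213.5) lay below +/1013 replicate 2 (282.5). The part of such cells was not tested.

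In SSCs, Ackr3 and Mif gave r = 0.938 over 8 libraries (exact permutation p = 0.000967, adjusted p = 0.0184; rho = 0.857, p = 0.0107, adjusted p = 0.103), and 0.963 without the 2 libraries farthest from the median in Ackr3. Mif and Hmgb1 gave r = 0.876 (exact permutation p = 0.00568, adjusted p = 0.0444; rho = 0.810, p = 0.0218, adjusted p = 0.166) and 0.704 without 2 libraries. These libraries also differ by genotype, with the 3 WT ones among the 4 lowest for Ackr3, Mif and Hmgb1, and no genotype has the 6 libraries needed for a value of its own. Cxcr4 and Cxcl12 gave r = -0.789 in SSCs (adjusted p = 0.0591 by the exact permutation test) and -0.559 without SSC WT replicate 3.

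**Figure D4:**
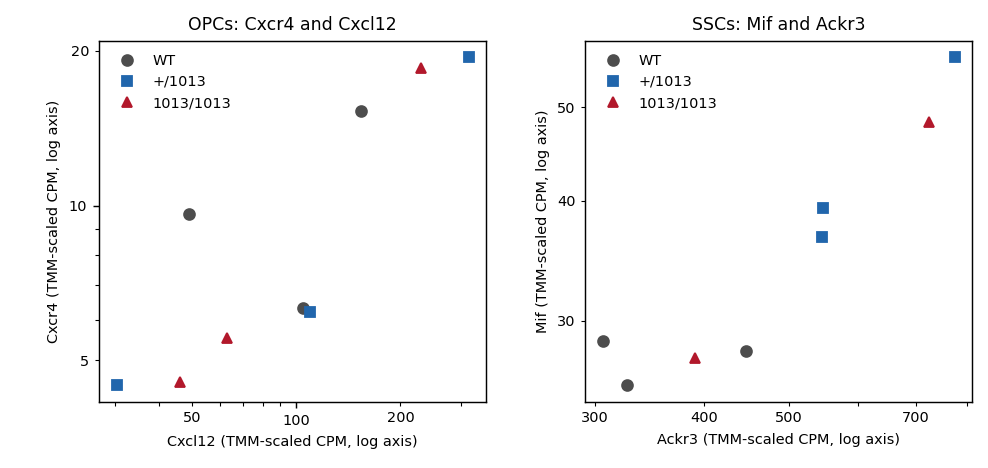
Cxcr4 against Cxcl12 in the 9 OPC libraries (left) and Mif against Ackr3 in the 8 SSC libraries (right), in TMM-scaled CPM on log axes, with symbols for genotype. The 3 highest OPC libraries in both genes come from 3 genotypes (r = 0.851), and the lower SSC libraries are the 3 WT ones and 1013/1013 replicate 1 (r = 0.938).

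Cd74 followed the class II genes in SSCs (r = 0.922, exact permutation p = 0.000843, adjusted p = 0.0184; rho = 0.929, p = 0.00223, adjusted p = 0.0585), with r = 0.806 without the leukocyte-rich library and 0.777 without the 2 libraries farthest in Cd74. In OPCs it gave r = 0.801 with the leukocyte sum (exact permutation p = 0.00584, adjusted p = 0.0444; rho = 0.733, p = 0.0311, adjusted p = 0.169), and r = 0.380 without the leukocyte-rich libraries, on which the relation rests.

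The genes most alike to each were ranked over 19613 genes by the lower of the correlations within the 9 OPC and the 8 SSC libraries. For Cxcr4 these were Adora2a (0.926), an adenosine receptor, Mgl2 (0.911), a lectin of macrophages and dendritic cells, and Camk1g (0.899), a calmodulin-dependent kinase, all of low mean level (0.588, 2.36 and 0.186 TMM-scaled CPM). Their likeness in SSCs leaned on SSC WT replicate 3, without which r was 0.697 for Adora2a and 0.381 for Mgl2, and Camk1g had no counts. For Cxcl12 they were Ifitm3 (0.871), S100a6 (0.865) and Blvrb (0.864), with r of 0.705 to 0.774 in SSCs without SSC WT replicate 3. For Ackr3 they were the caveolar gene Cav1 (0.910), the transcription factor gene Irf1 (0.907) and the epoxide hydrolase gene Ephx1 (0.905), with r of 0.873 to 0.938 in SSCs without that library. For Cd74 they were Klhl6 (0.868), Susd3 (0.852) and Lst1 (0.849). Without SSC WT replicate 3 their r in SSCs was 0.817, 0.61 and 0.723. Susd3 and Lst1 had low mean levels (1.18 and 0.671 TMM-scaled CPM). All genes were compared over the same libraries, with their depth and preparation in common, and the values are descriptions.

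Of 37 further genes of the axis (other ligands and receptors, proteases that cleave CXCL12, arrestins, receptor kinases and sorting factors, G proteins, and the class II pathway), 36 were tested between the cell types, and Cxcl11 was not. In WT cells 0 were called higher in SSCs and 3 lower, with a median of 0.178 against 0.173 over all genes. In +/1013 cells 2 were called higher and 2 lower (median -0.02 against 0), and in 1013/1013 cells 2 higher and 1 lower (-0.47 against -0.195). As shares of the 36 genes these edgeR counts lie below the 11.4%, 12.5% and 13.1% called over all genes. By edgeR 0 were called between genotypes in either cell type. Genes with an unadjusted p under 0.05 were counted in +/1013 against WT, 1013/1013 against WT and 1013/1013 against +/1013 cells, in this order. In OPCs there were 0, 4 and 5 of 34 genes tested, against 331, 548 and 513 of all 16207. The last 2 of these shares were larger in the list than over all genes. In SSCs there were 10, 3 and 3 of 35, against 3061, 3224 and 977 of all 17659. There the first and last shares were larger in the list. DESeq2 called 0 in the OPC comparisons. In SSCs it called 6 for +/1013 (1 higher and 5 lower) where it called 7.37% of all genes, 3 for 1013/1013 (2 higher and 1 lower) against WT where it called 9.67%, and 1 between the mutants, where it called 0.957%. As shares of the 35 genes tested in SSCs, the first and last of these counts lie above the share over all genes. Between the cell types DESeq2 called 6 higher and 4 lower in WT against 18.9% of all genes. It called 4 higher and 6 lower in +/1013 (21.2%) and 3 higher and 4 lower in 1013/1013 cells (23.6%). The WT and +/1013 shares of the 36 genes lie above those over all genes, and the 1013/1013 share below. In the edgeR comparison of WT cells 13 had an unadjusted p under 0.05, 8 of them higher, against 5412 of all 20238 genes.

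Gnai1, an inhibitory G protein α subunit through which CXCR4 can signal, was lower in SSCs in each genotype (-3.57 ± 0.54 in WT, adjusted p = 0.00103; -3.79 ± 0.55 in +/1013, adjusted p = 0.000507; -4.20 ± 0.67 in 1013/1013, adjusted p = 0.00117). Its level was 35.1 to 131.2 TMM-scaled CPM in OPC libraries and 1.76 to 12.6 in SSC libraries. Gnai2, the α subunit predominant in leukocytes, was called lower in WT SSCs (-0.64 ± 0.17, adjusted p = 0.0267), as was Sppl2a, the protease that clears CD74 remnants (-1.14 ± 0.28, adjusted p = 0.0169). Both calls were lost without the leukocyte-rich libraries (-0.48 and -0.91, adjusted p = 0.156 for each), and without OPC WT replicate 3 or any 1 SSC WT library (adjusted p = 0.0502 to 0.118). The Gnai1 calls held without each library.

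Grk5, a kinase that phosphorylates activated receptors, was called higher in 1013/1013 SSCs (4.11 ± 0.96, adjusted p = 0.0128), and its values were 2.67 ± 0.86 in WT (adjusted p = 0.0619) and 2.34 ± 0.85 in +/1013 cells (adjusted p = 0.0903), each without overlap. Hgs, which sorts ubiquitinated receptors to lysosomes, was called in the same comparison (0.85 ± 0.25, adjusted p = 0.0414). In +/1013 cells the HMGB1 receptor Tlr4 (1.72 ± 0.53, adjusted p = 0.0472) and Hmgb2, a relative of Hmgb1 (3.12 ± 0.83, adjusted p = 0.0248), were called higher in SSCs. Mmp9, a protease that cleaves CXCL12, was called lower (-6.08 ± 1.67, adjusted p = 0.0286). Leaving out 1 library ended the Tlr4 call in 5 of 6 fits, without OPC +/1013 replicate 2 or 3 or any 1 SSC +/1013 library (adjusted p up to 0.150). It ended the Hmgb2 call in 4 of 6, without any 1 OPC library or SSC replicate 2 (up to 0.0824), and the Mmp9 call in 4 of 6, without OPC or SSC replicate 1 or 2 (up to 0.107). The Hgs call ended in 4 of 5, without any 1 OPC library or SSC 1013/1013 replicate 1 (up to 0.265), and the Grk5 call held in all 5. Without the leukocyte-rich libraries Tlr4 and Hgs also missed the threshold (adjusted p = 0.0774 and 0.0871). Mmp9 reached 487.6 and 1127 TMM-scaled CPM in the 2 leukocyte-rich OPC libraries and Hmgb2 122.1 in the leukocyte-rich SSC library. These were the highest values of their cell types. The +/1013 groups hold none of these libraries, but all 17 libraries enter the spread of the fit.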

How the data were processed

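Per the labels and the study's methods, the authors amplified cDNA with the SMART-Seq v4 kit (12 PCR cycles), which does not mark strand, built Nextera XT libraries, aligned paired reads to mm10 with STAR and counted them with HTSeq; versions and annotation release are not given in the sources used here. The deposited values are counts per gene without normalization. Rows that name no gene were left out of the totals and tests: 1.15% to 4.16% of reads fell on no gene, 1.87% to 3.93% were ambiguous and 5.10% to 10.4% were not unique. Of 55335 gene identifiers, 55154 matched GENCODE M21, 54587 of them with the same version.

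The genes and lists were chosen with earlier results of these data known. edgeR 4.0.16 in R 4.3.3 (glmQLFit with legacy = TRUE, filterByExpr, TMM, no covariates) was fitted to the 9 OPC libraries, to the 8 SSC libraries, and to all 17 libraries for the cell type and interaction contrasts, and p-values were adjusted over 16207, 17659 and 20238 genes. The SE is the absolute log2 fold change over the square root of F. DESeq2 1.42.0, other normalizations and filters, a replicate block and leaving out libraries were alternatives, and both tools were tested on simulated data. Likeness and correlations used log2(TMM-scaled CPM + 0.5). Named are the 6 genes, genes of the axis list called between cell types, and the 3 genes most alike to Cxcr4, Cxcl12, Ackr3 and Cd74. Replicates of a group differed by more than counting noise. Nothing states that pools of a group came from separate sorts, so p-values measure the spread between these libraries.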

Additional observations from a re-analysis of the deposited data

How the results depend on the processing

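The calls of Hmgb1 between the cell types, and of Ackr3 in +/1013 and 1013/1013 cells, held under every alternative run, and no called member changed direction. The number of the 6 genes called in WT SSCs against OPCs fell from 2 to 1 with upper-quartile normalization, with no filter on low counts, and without the 3 leukocyte-rich libraries. Ackr3 then missed the threshold (adjusted p = 0.0557, 0.0669 and 0.198). The number rose to 3 with DESeq2, with a minimum of 10 counts in every library and with legacy = FALSE. Cxcl12 in WT cells was called in 3 of 16 settings. In 1013/1013 cells the number rose from 3 to 4 with DESeq2 and without the leukocyte-rich libraries. In +/1013 cells it fell from 5 to 4 with the minimum of 10 counts. DESeq2 called 2 in +/1013 against WT SSCs, and 1 in each difference of the genotype effect between the cell types, where edgeR called 0. A minimum of 10 counts in every library removed Cxcr4 from the SSC and 17-library fits.

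Leaving out each library in turn gave 1 to 2 called genes in WT, 3 to 4 in +/1013 (5 with all libraries) and 2 to 3 in 1013/1013 cells between the cell types. Ackr3 in WT cells missed the threshold without OPC WT replicate 2 or 3 or any 1 SSC WT library (adjusted p = 0.0698 to 0.165). In +/1013 cells, Cxcr4 missed it without OPC replicate 1 or any 1 SSC library (0.0602 to 0.0964), Cxcl12 without OPC replicate 2 or 3 or SSC replicate 1 (0.064 to 0.0902), and Mif without OPC replicate 1 or 3 or SSC replicate 2 (0.0577 to 0.0974). In 1013/1013 cells, Cxcl12 missed it without OPC replicate 1 or 3 or either SSC library (0.0521 to 0.0862). Such fits hold fewer libraries.

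The labels do not say whether replicate numbers pair the libraries, and the values do not settle it. Deviations of same-numbered OPC libraries correlated at -0.354 to 0.380, with 5 of 9 pairs over 0.1. Other OPC pairs gave -0.435 to 0.466, with 4 of 18 over 0.1. In SSCs same-numbered pairs gave -0.142 to 0.123, with 2 of 7, and other pairs -0.123 to 0.194, with 2 of 14. The deviations of the 2 libraries of 1013/1013 SSCs mirror each other by construction. In all, 5 of 9 OPC and 4 of 8 SSC libraries correlated best with their own number. A replicate block called 2 genes in WT, 4 in +/1013 and 2 in 1013/1013 cells between the cell types and 0 elsewhere. It ended the calls of Cxcr4 in +/1013 cells (-4.58, adjusted p = 0.0525), and of Cxcl12 (2.95, adjusted p = 0.0668) and Hgs (0.95, adjusted p = 0.0664) in 1013/1013 cells, and no other call. It turned Cxcl12 to -0.0535 in 1013/1013 against WT OPCs, Cxcr4 to 0.0216 in 1013/1013 against +/1013 OPCs and to -1.02 in WT SSCs against OPCs. It turned Cd74 to 1.05 in 1013/1013 against WT SSCs, to -0.13 in +/1013 and 1.58 in 1013/1013 SSCs against OPCs, and to 0.61 in the 1013/1013 difference between cell types. The cause was not tested.

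No reversed value was called. Hmgb1 in OPCs, whose values lay near 0, turned to -0.02434 (1013/1013 against WT) and -0.02007 (against +/1013) with upper-quartile normalization, and for +/1013 against WT to 0.003162 with no filter, 0.00029 with the minimum of 10 counts and 0.0001257 with 17 libraries in the fit. Without the leukocyte-rich libraries, an alternative chosen after seeing the data, +/1013 against WT OPCs gave -0.0791 for Ackr3, 0.45 for Cd74 and 0.0278 for Hmgb1. There 1013/1013 against WT OPCs gave -0.89 for Cxcl12, -1.59 for Cd74 and -0.005785 for Hmgb1, and 1013/1013 against +/1013 OPCs -2.04 for Cd74 and -0.0336 for Hmgb1. Cd74 also turned to 1.17 in 1013/1013 against WT SSCs, 3.45 in 1013/1013 SSCs against OPCs and 2.75 in the 1013/1013 difference, and Cxcr4 to -3.62 in WT SSCs against OPCs and 0.22 in the 1013/1013 difference. These libraries are absent by construction. No further cause was tested.

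Over the fits without 1 library, values that turned ranged as follows. In +/1013 against WT OPCs they were -0.96 to 0.34 for Cxcr4, -0.55 to 1.05 for Cxcl12, -0.09892 to 0.54 for Ackr3, -0.84 to 0.45 for Cd74, -0.25 to 0.11 for Mif and -0.03477 to 0.03914 for Hmgb1. In 1013/1013 against WT OPCs they were -1.05 to 0.25 for Cxcr4, -0.92 to 0.56 for Cxcl12, -0.40 to 0.20 for Ackr3, -2.43 to 3.57 for Cd74, -0.05724 to 0.33 for Mif and -0.04752 to 0.11 for Hmgb1. In 1013/1013 against +/1013 OPCs they were -1.02 to 0.83 for Cxcr4, -1.50 to 0.69 for Cxcl12, -2.06 to 3.70 for Cd74 and -0.05422 to 0.11 for Hmgb1. In 1013/1013 against +/1013 SSCs they were -1.03 to 1.87 for Cxcr4, -0.54 to 0.03086 for Cxcl12, -0.67 to 0.22 for Ackr3, -0.68 to 0.13 for Mif and -0.23 to 0.12 for Hmgb1. In 1013/1013 against WT SSCs they were -2.59 to 1.17 for Cd74 and -0.02414 to 0.80 for Mif. Between the cell types they were -3.36 to 1.23 for Cxcr4 in WT cells, and for Cd74 -0.13 to 3.42 in WT, -1.51 to 0.63 in +/1013 and -2.63 to 3.44 in 1013/1013 cells. In the differences between cell types they were -4.09 to 0.28 for Cd74 with +/1013, and -5.23 to 0.85 for Cd74 and -0.06828 to 0.72 for Mif with 1013/1013. With 2 or 3 libraries a group, the spread of Cxcr4, Cxcl12 and Cd74 rather than counting noise limits what could be called in OPCs, where the lowest Cxcr4 count was 249, while Cxcr4 in SSCs rests on 6 to 84 counts outside SSC WT replicate 3.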

Other observations

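Dpp4, a protease that inactivates CXCL12 and was picked out after its values were seen, had 0 to 7.28 TMM-scaled CPM in the 9 OPC libraries and 24.5 to 167.3 in the 8 SSC libraries. It did not overlap between the cell types in any genotype, yet it was not called (log2 fold change 5.14 ± 2.06 in WT, adjusted p = 0.127; 4.98 ± 2.04 in +/1013, adjusted p = 0.131; 5.15 ± 2.12 in 1013/1013, adjusted p = 0.129). In 4 OPC libraries its count was 0.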
